A study of Mus musculus with 12 samples.

Results

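The transcripts described here are those of 44 complement and coagulation genes in mouse liver, out of 56923 gene IDs in the count table. They were chosen by name, as the classical, lectin, alternative and terminal complement proteins, their plasma inhibitors, the clotting factors, the fibrinogen chains and the proteins that limit or dissolve clots, and all 44 were found. Of these, 39 are made mainly by hepatocytes. The 3 chains of C1q are made mainly by macrophages, properdin (Cfp) mainly by leukocytes and factor D (Cfd) mainly by fat cells. A filter on low counts left 43 of the 44 among the 16839 genes tested, and Cfd was the one that did not pass.

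Whole liver RNA came from 12 C57BL/6J mice, 3 in each of 4 groups, all of wild-type genotype and all with the same liver injury. From the age of 6 weeks they were injected in the abdomen with 200 µL of 7.5% carbon tetrachloride (CCl4) in olive oil, 2 times a week over 6 weeks. The control group had CCl4 and no curcumin. The low, medium and high groups also had curcumin, the yellow polyphenol of turmeric, at 25, 50 or 100 mg/kg by daily gavage during 2 weeks. The labels do not say whether control mice had a gavage of vehicle, and they do not give the sex of the mice. Mice were kept 3 to a cage, so that cage and group may coincide. Livers without CCl4 were not analysed here, so every comparison is between injured livers. The numbers 1 to 3 below name the mice of a group and are taken to pair none of them across groups.

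Complement and clotting are both cascades of plasma proteases that circulate as inactive precursors and cut one another in turn. The hepatocyte secretes most of them, and their transcripts are among its most abundant. C1q, which recognises antibody bound to a surface and starts the classical pathway, is an exception, since in liver it marks Kupffer cells and other macrophages. Many of the hepatocyte genes are controlled by the liver factors HNF1, HNF4 and C/EBP, and fibrinogen is a classical target of interleukin 6 through STAT3.

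The sequences of 6 promoters are shown because these genes form 3 related sets whose transcripts did not keep a fixed ratio among the 12 livers. C8a and C8b encode chains of the same complement protein, F7 and F10 encode clotting factors that act one after the other, and Fga and Fgb encode chains of fibrinogen. Each sequence holds the 250 bases before the annotated start, from RefSeq on build GRCm38.p6, read 5′ to 3′ in the direction of the gene. Capitals mark a match to 1 of 5 motifs searched on both strands: the C/EBP motif TTGCNNAA, the HNF1 core GTTAAT, the HNF4 motif CAAAGTCC, the STAT motif TTCNNNGAA and the core promoter box TATAAA.
C8a: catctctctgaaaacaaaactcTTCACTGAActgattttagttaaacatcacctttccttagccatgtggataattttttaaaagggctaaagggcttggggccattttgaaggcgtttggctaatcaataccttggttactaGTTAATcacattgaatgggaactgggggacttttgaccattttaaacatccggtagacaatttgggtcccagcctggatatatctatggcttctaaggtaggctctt
C8b: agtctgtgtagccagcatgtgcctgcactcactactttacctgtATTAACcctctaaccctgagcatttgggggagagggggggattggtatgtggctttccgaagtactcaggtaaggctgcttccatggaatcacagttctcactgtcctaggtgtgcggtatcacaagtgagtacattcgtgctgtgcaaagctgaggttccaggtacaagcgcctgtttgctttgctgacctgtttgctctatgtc
F7: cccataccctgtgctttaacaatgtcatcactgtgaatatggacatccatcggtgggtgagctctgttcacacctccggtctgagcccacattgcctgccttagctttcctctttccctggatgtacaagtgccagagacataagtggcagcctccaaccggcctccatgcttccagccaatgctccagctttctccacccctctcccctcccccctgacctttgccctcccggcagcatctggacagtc
F10: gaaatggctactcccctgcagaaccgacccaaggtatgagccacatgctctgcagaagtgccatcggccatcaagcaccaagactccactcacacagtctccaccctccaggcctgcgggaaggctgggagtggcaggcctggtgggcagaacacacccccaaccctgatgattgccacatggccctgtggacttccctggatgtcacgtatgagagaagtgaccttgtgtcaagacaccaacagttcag
Fga: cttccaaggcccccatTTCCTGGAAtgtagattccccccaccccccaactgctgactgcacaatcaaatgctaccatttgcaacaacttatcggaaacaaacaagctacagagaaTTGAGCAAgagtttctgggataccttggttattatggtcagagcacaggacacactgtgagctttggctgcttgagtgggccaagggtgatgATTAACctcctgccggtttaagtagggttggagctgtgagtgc
Fgb: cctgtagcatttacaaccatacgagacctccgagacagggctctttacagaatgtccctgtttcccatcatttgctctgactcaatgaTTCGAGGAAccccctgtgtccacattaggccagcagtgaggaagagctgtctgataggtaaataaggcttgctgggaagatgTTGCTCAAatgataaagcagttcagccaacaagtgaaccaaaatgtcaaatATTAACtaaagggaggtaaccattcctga
These windows lie at chr4:104876399-104876648 on the minus strand for C8a, chr4:104766067-104766316 on the plus strand for C8b, chr8:13025784-13026033 on the plus strand for F7, chr8:13037058-13037307 on the plus strand for F10, chr3:83025903-83026152 on the plus strand for Fga and chr3:83049864-83050113 on the minus strand for Fgb. Fga and Fgb each held 1 C/EBP, 1 HNF1 and 1 STAT match. C8a held 1 HNF1 and 1 STAT match, C8b held 1 HNF1 match, and the windows of F7 and F10 held none of the 5 motifs. Promoter sequences were found for 34 of the 44 members. Of these 34, 26.5% held the HNF1 core, against 6.52% of all 27025 promoters in the table. The C/EBP motif was in 23.5% of the members' promoters, against 9.55% of all promoters, and the STAT motif in 17.6% against 7.18%. The HNF4 motif was in 0 of the 34, against 1.22% of all promoters. The core promoter box was in 8.82% of the members' promoters and 12.97% of all promoters. A match is a run of letters and no proof of a bound factor.

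The libraries held 36015134 to 70376474 counts, so that 3 counts correspond to 0.0426 to 0.0833 CPM, the unit of counts scaled to library size. Mitochondrially encoded transcripts took 58.6%, 60.9% and 64.2% of the counts in the control livers, 63.7%, 64.1% and 43.0% in the low group, 48.3%, 55.5% and 60.2% in the medium group and 30.3%, 64.7% and 42.1% in the high group. A further 10.9% to 23.3% fell on 11 nuclear genes that are near-identical copies of mitochondrial ones. The share varied most within the low and high groups, and 4 livers (low 3, medium 1, high 1 and high 3) had shares below 50%. CPM values below are scaled by TMM, a normalization that trims genes with extreme counts or ratios. The members together took 1.99% (low 2) to 3.30% (high 1) of the counts that remained after mitochondrial genes and their copies were set aside. Hepatocyte markers were abundant in all 12 livers, with Alb alone at 2856 CPM in the lowest (high 2) and 33935 CPM in the highest (high 1).

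Per transcript length, the kininogen gene Kng1, whose protein is cut to release bradykinin, was the most abundant member, with a median of 2755 TPM across the 12 livers (TPM being each gene's length-scaled share of the nuclear transcripts). Next came protein C (Proc) with a median of 1334 TPM, vitronectin (Vtn) with 1073 TPM and C3 with 1002 TPM. Plasminogen (Plg), C1s1 and C4b followed closely at 859, 855 and 852 TPM. The C1q chains were near the lower end, with C1qb at 65.6 TPM, C1qa at 51.01 TPM and C1qc at 46.5 TPM, close to C8b at 50.2 TPM. C6 was the least abundant of the 43 tested members, with a median of 15.2 TPM. The ranges of neighbours in this order overlapped: Vtn ran from 435 to 2315 TPM and C3 from 498 to 1451 TPM. The order also depends on the transcript length used. Serpinc1, at a median of 424 TPM, was scaled by 4970 bases, and 2942 bases of its sequence are identical to Zbtb37. Klkb1, at 294 TPM, was scaled by 5249 bases, with 2267 bases identical to Gm45753.

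No complement or coagulation transcript passed the test at any dose of curcumin. With edgeR's quasi-likelihood test, 0 of 43 members had an adjusted p under 0.05 in the low group against control, where 0% of all 16839 genes did. The counts were likewise 0 of 43 in the medium group (0% of all genes), 0 of 43 in the high group (0%), 0 of 43 for the mean of the 3 doses (0%), 0 of 43 for a slope on dose (0%) and 0 of 43 for any difference among the 3 doses (0%). At an unadjusted p under 0.05 there was 1 member in the low group (5.99% of all genes), 1 in the medium group (5.58%) and 1 in the high group (12.8%). For the mean of the doses there were 2 (9.37% of all genes), for the slope 3 (11%) and among the doses 2 (3.65%). DESeq2 called 0 members in the low, medium and high groups, for the slope and among the doses, and 1 member, C4b, for the mean of the doses. Over all genes DESeq2 called 42 in the low, 89 in the medium and 172 in the high group, 165 for the mean of the doses, 67 for the slope and 16 among the doses. All of these comparisons but the one among doses share the same 3 control livers.

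In log2 units the median change of the 43 members against control was 0.03 in the low, -0.03 in the medium and 0.42 in the high group, beside 0.01, 0.02 and 0.03 for all genes tested. The 0.42 of the high group rests on 1 liver: without high 1, the median of the 39 hepatocyte-made members was 0.00017, against 0.42 with it. In the high group 14 of 14 hepatocyte markers (median 1.68) and 8 of 9 markers of stellate cells and fibroblasts (median 1.15) also had estimates above control, with 0 called. The hepatocyte markers were above control at the other doses too, with 14 of 14 in the low (median 0.74) and 14 of 14 in the medium group (median 0.90). Of the stellate cell and fibroblast markers, 4 of 9 were above control in the low (median -0.091) and 3 of 9 in the medium group (median -0.17). The part of these markers in the members' values was not tested. The groups did not overlap for 4 members in the low group: Klkb1 was higher than in control (7.41% of all genes were higher in this way), and F13b, F7 and C4b were lower (6.36%). In the medium group Fga and F9 lay above control (7.61% of all genes) and C4b below it (6.38%). In the high group 0 members lay wholly above control (6.47% of all genes), and C4b lay below it (6.52%).

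**Figure D1:**
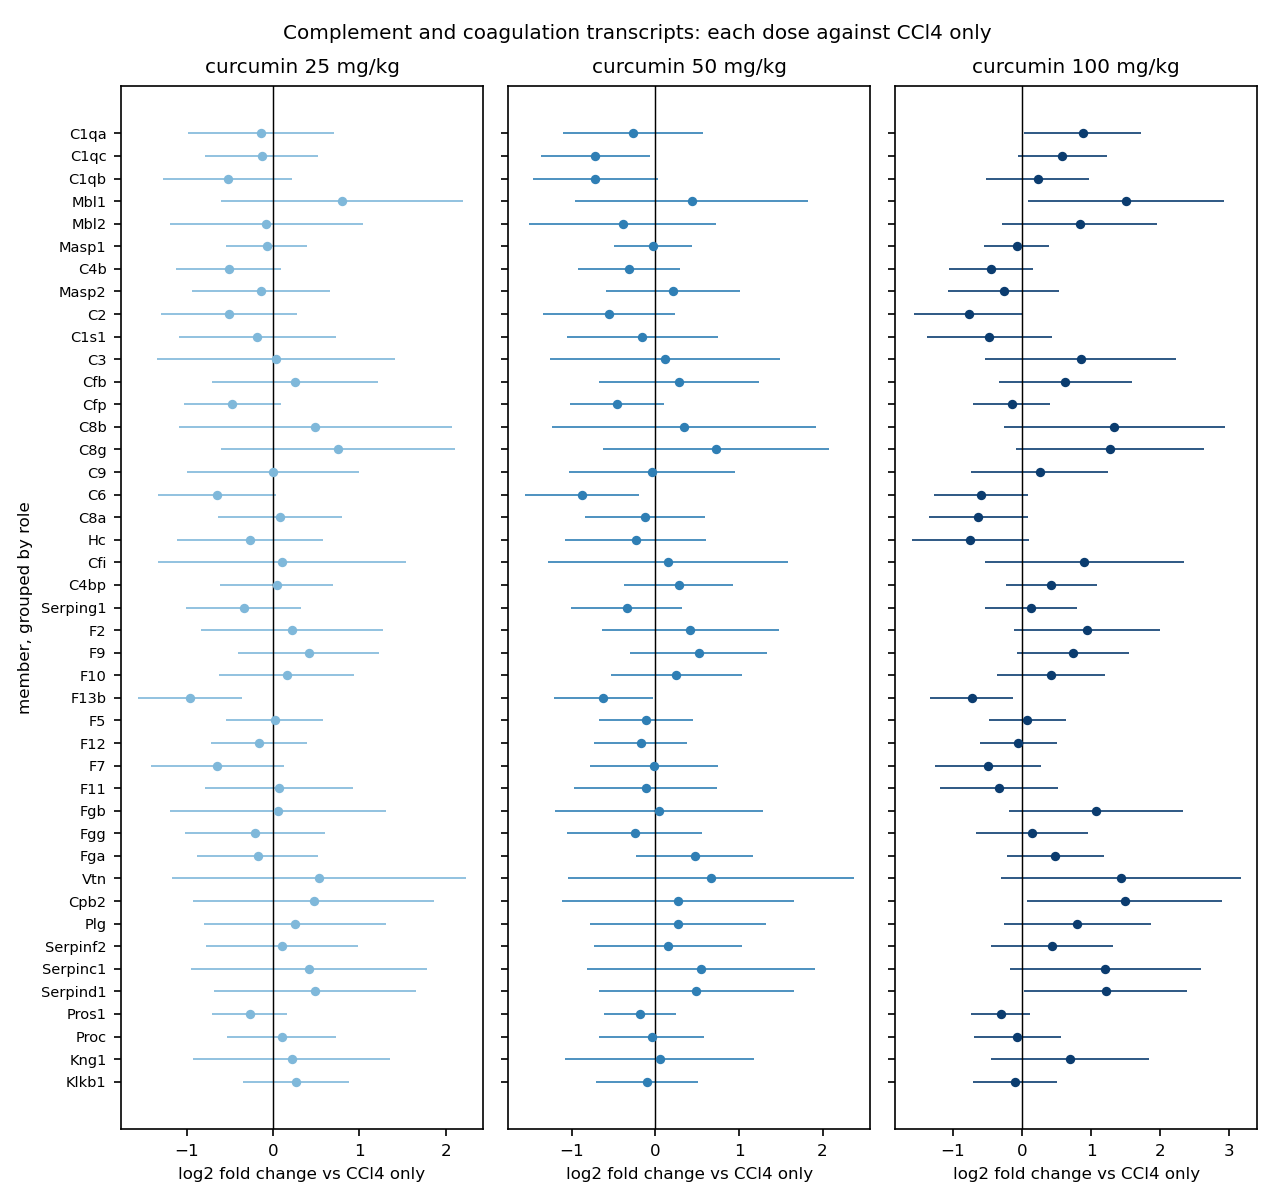
Log2 fold change of each of the 43 tested members against the CCl4 control, in panels for 25, 50 and 100 mg/kg curcumin (3 livers per group). Points are edgeR estimates and bars are 1.96 standard errors; members run down the page by role, and the bars are widest for Vtn, C8b and Cfi, whose values in the high group are 1.43, 1.34 and 0.90, and the highest values there are those of Mbl1 and Cpb2 at 1.51 and 1.49, with no adjusted p under 0.05.

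What did track the members was the mitochondrial share of the library. In a fit with the 4 group means and the share as a number, 28 of 43 members passed the test, against 28.2% of all genes. Of these, 22 fell as the share rose (15.7% of all genes fell) and 6 rose with it (12.5% of all genes). The fall was largest for C8b, at -1.16 ± 0.081 log2 units per 10 percentage points, and for Vtn, at -1.13 ± 0.13. The rise was largest for F11, at 0.50 ± 0.077, and C1s1, at 0.45 ± 0.091. When libraries were scaled by their totals without mitochondrial genes and copies instead of TMM, 19 members were lower (7.86% of all genes) and 10 higher (28.4%). That scaling moved the median slope of all genes to 0.17, from which member slopes are then to be read. Under it F10, Fgg and C4bp were no longer called, and F12, Proc, Cfp and C8a were called higher. With 1 liver left out the number of members called ran from 21 (without high 2, with 1827 genes called over the whole table) to 30 (without control 3). Hc, Fgg, Masp2, C1s1, F7, F10 and C2 were not called without high 2, and Fgg, Masp2 and F7 were not called without high 1. Of 14 hepatocyte markers tested, 12 fell with the share (15.7% of all genes) and 0 rose (12.5%), and their summed level ran from 7468 CPM (high 2) to 61656 CPM (high 1). Markers of other cells fell as well, with 6 of 9 for stellate cells and fibroblasts (median slope -0.54), 2 of 8 for sinusoidal endothelium, 1 of 12 for Kupffer cells and macrophages and 1 of 7 for recruited macrophages, and 0 rose in these 4 lists. Of the neutrophil (5 tested) and cholangiocyte (4 tested) markers 0 passed in either direction, and of 4 platelet markers 1 rose and 0 fell. The share was not assigned by the study, and what sets it was not tested.

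**Figure D2:**
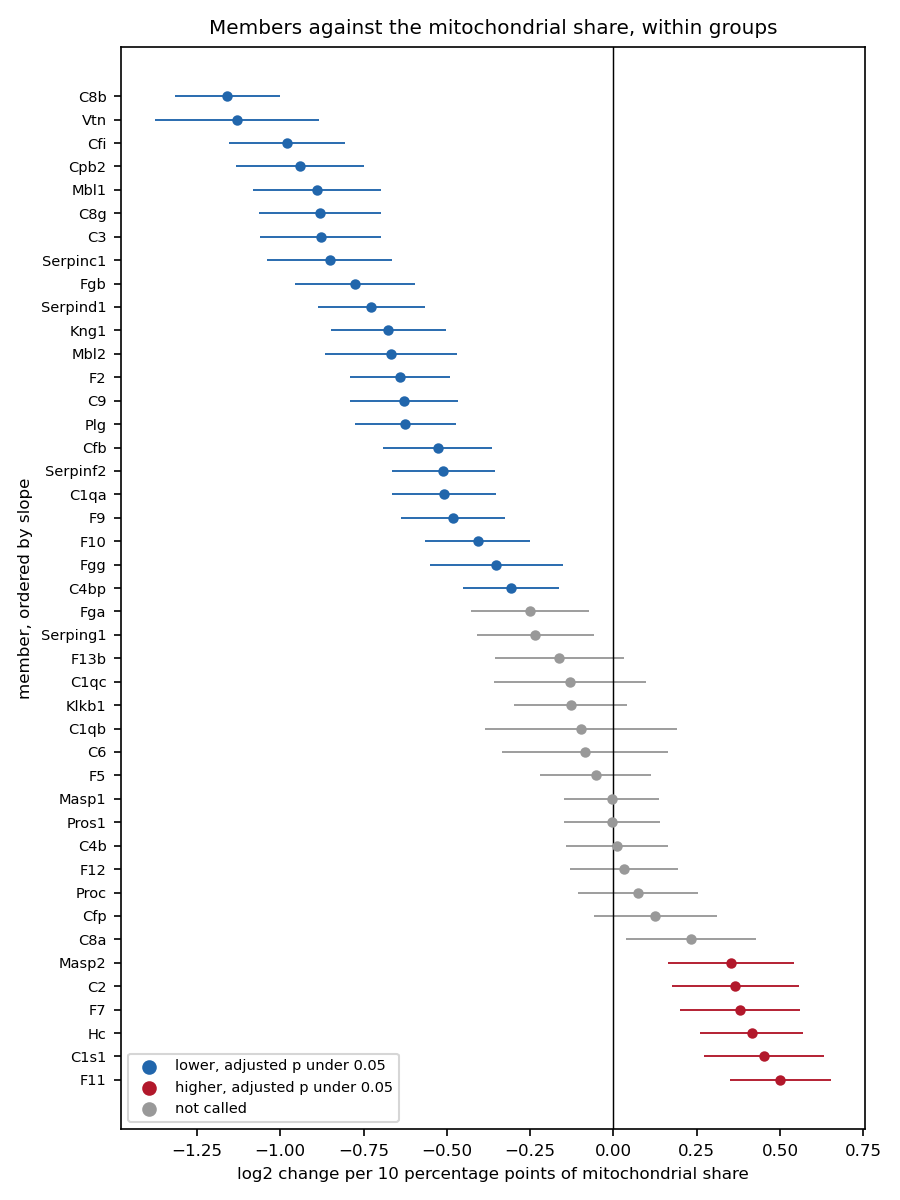
Log2 change of each tested member per 10 percentage points of the library's mitochondrial share, fitted within the 4 groups over 12 livers; points are edgeR estimates, bars are 1.96 standard errors, and colour gives the call at an adjusted p under 0.05. From C8b at -1.16 down the page to F11 at 0.50, 22 members are called lower, 6 are called higher and 15 are not called.

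Among the C1q chains the highest values were all in high 1, and no chain passed the test at any dose. C1qa had 6.37, 7.68 and 4.75 CPM in control livers, 5.03, 4.14 and 7.84 at 25 mg/kg, 7.51, 4.25 and 3.83 at 50 mg/kg and 19.1, 5.33 and 10.00 at 100 mg/kg. C1qb had 9.76, 13.99 and 5.20 CPM in control livers, 8.78, 6.51 and 4.90 at 25 mg/kg, 4.94, 5.57 and 7.05 at 50 mg/kg and 17.02, 8.25 and 8.62 at 100 mg/kg. C1qc had 6.82, 8.70 and 4.01 CPM in control livers, 6.59, 6.43 and 4.88 at 25 mg/kg, 4.37, 3.76 and 3.72 at 50 mg/kg and 14.7, 7.97 and 6.62 at 100 mg/kg. The livers of every dose group overlapped those of the control group for each of the 3 chains. C1qa differed from control by -0.14 ± 0.43 (adjusted p = 0.965) in the low, -0.27 ± 0.43 (adjusted p = 0.997) in the medium and 0.88 ± 0.43 (adjusted p = 0.411) in the high group, all in log2 units. For C1qb these differences were -0.53 ± 0.38 (adjusted p = 0.864), -0.72 ± 0.38 (adjusted p = 0.973) and 0.23 ± 0.38 (adjusted p = 0.812). For C1qc they were -0.13 ± 0.33 (adjusted p = 0.958), -0.72 ± 0.33 (adjusted p = 0.894) and 0.59 ± 0.33 (adjusted p = 0.449). The estimates were thus lower than control at 25 and 50 mg/kg and higher at 100 mg/kg, without a call. Scaled by library totals, C1qa was at 0.092 at 25 and 0.19 at 50 mg/kg, below the medians of 0.11 and 0.47 over all genes. Over the 3 doses together the differences were 0.16 ± 0.35 for C1qa, -0.34 ± 0.30 for C1qb and -0.089 ± 0.27 for C1qc (adjusted p of 0.903, 0.723 and 0.927). The slope over 100 mg/kg was 0.93 ± 0.40 (adjusted p = 0.434) for C1qa, 0.32 ± 0.38 (adjusted p = 0.738) for C1qb and 0.59 ± 0.37 (adjusted p = 0.531) for C1qc. The estimates of the high group leaned on 1 liver. Without high 1 the high group differed from control by 0.30 for C1qa, -0.19 for C1qb and 0.16 for C1qc. Scaled by totals without mitochondrial genes and copies, C1qb was at -0.16 in the high group, against a median of -0.24 over all genes. In the test among the doses C1qc, C1qa and C1qb had the smallest p of all members, at 0.0062, 0.0323 and 0.0569 by edgeR, and an adjusted p of 0.986 each.

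**Figure D3:**
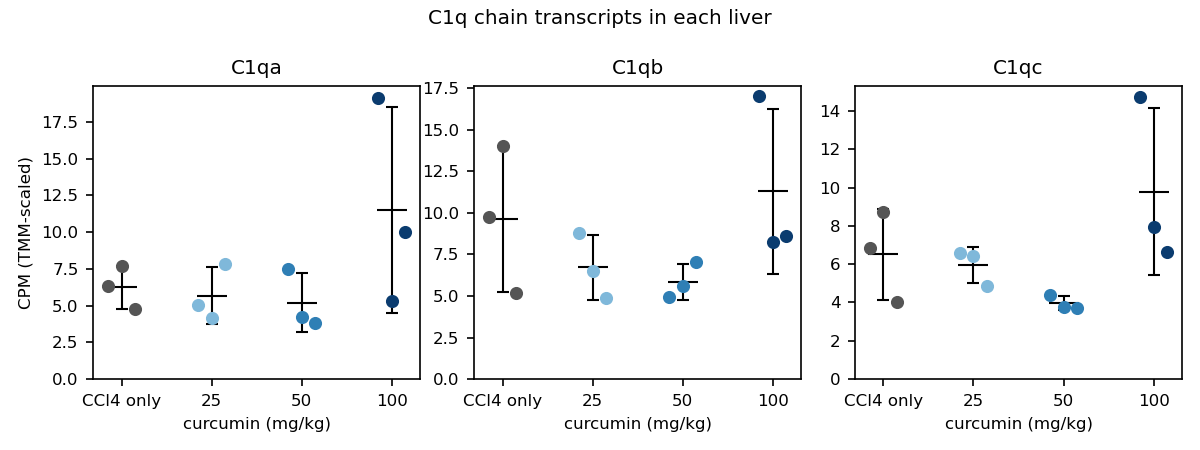
TMM-scaled CPM of C1qa, C1qb and C1qc in each of 12 livers, by curcumin dose in mg/kg with the CCl4 control at the left; points are livers, and bars give the mean and SD of 3. In each panel high 1 is the highest point, at 19.1, 17.02 and 14.7 CPM.

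The C1q chains are set here beside markers of macrophages. Summed over the 3 chains, C1q was highest in high 1 (50.9 CPM) and next highest in control 2 (30.4 CPM). The summed CPM of 12 Kupffer cell and macrophage markers was 133.8, 215.1 and 85.04 in control livers, 85.01, 62.6 and 67.8 at 25 mg/kg, 74.4, 73.4 and 82.6 at 50 mg/kg and 115.7, 86.9 and 88.2 at 100 mg/kg. Of the 12 markers, 12 in the low, 11 in the medium and 8 in the high group had lower estimates than in control, and 0 were called by edgeR (5, 8 and 4 at an unadjusted p under 0.05, where 5.99%, 5.58% and 12.8% of all genes were). Clec4f, the Kupffer cell lectin, had 54.03, 60.9 and 29.1 CPM in control livers, 22.2, 15.1 and 22.4 at 25 mg/kg, 23.4, 30.6 and 32.3 at 50 mg/kg and 20.5, 22.98 and 28.5 at 100 mg/kg. For Clec4f, medium 2 and medium 3 were the only curcumin livers above the lowest control liver. The 7 markers of recruited macrophages summed to 14.8 CPM in high 1, 8.29 CPM in control 2 and 3.01 to 5.74 CPM in the other livers. Of these 7 markers, 6 in the low, 6 in the medium and 3 in the high group had lower estimates than in control, and 0 were called. Among them Trem2, a receptor of scar-associated macrophages, was at 3.00 CPM in high 1 and at most 0.897 CPM elsewhere. The part of these cell markers in the C1q values was not tested, and fewer cells of a type cannot be told apart from less RNA per cell in whole tissue.

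The C1q chains differed in how they tracked the mitochondrial share. C1qa fell by 0.51 ± 0.080 log2 units per 10 points (adjusted p = 0.000482). C1qb and C1qc had slopes of -0.10 ± 0.15 (adjusted p = 0.679) and -0.13 ± 0.12 (adjusted p = 0.45). Scaled by totals without mitochondrial genes and copies these slopes were 0.11 and 0.075, below the median of 0.17 over all genes. Per transcript length, C1qa lay above C1qb only in the 4 livers with shares below 50%, and the ratio of C1qa to C1qb ran from 0.568 (medium 3) to 1.68 (low 3).

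The transcripts that start the classical and lectin pathways gave no call at any dose, but C4b, the mouse C4 gene whose product is cut to tag surfaces, was lower in every curcumin liver than in every control liver. C4b had 508, 617 and 581 CPM in control livers, 403, 375 and 415 at 25 mg/kg, 407, 463 and 503 at 50 mg/kg and 435, 428 and 388 at 100 mg/kg. Its highest curcumin liver, medium 3, lay just under the lowest control liver, control 1. Among all genes 1.2% were lower in this way in all 9 curcumin livers, and 1.06% were higher. The change of C4b was -0.52 ± 0.31 (adjusted p = 0.842) in the low, -0.31 ± 0.31 (adjusted p = 0.997) in the medium and -0.45 ± 0.31 (adjusted p = 0.53) in the high group. For the 3 doses together it was -0.43 ± 0.25 (adjusted p = 0.589) by edgeR, with an interval of -0.91 to 0.061, and -0.45 by DESeq2 (adjusted p = 0.0356). C4b was named after its values were seen. Scaled by library totals, its change was 0.11 in the medium and 0.23 in the high group, below the medians of 0.47 and 0.71 that all genes had under that scaling. C4b shares 96.0% of its bases with the neighbouring gene C4a over the aligned stretch, so reads of the pair may have been divided between them, although C4a held only 2.30% as many counts. C4b did not track the mitochondrial share, with a slope of 0.011 ± 0.079 (adjusted p = 0.936).

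C1s1, the C1s protease that cuts C4 and C2, had 208, 216 and 368 CPM in control livers, 277, 249 and 171 at 25 mg/kg, 163, 269 and 278 at 50 mg/kg and 112, 331 and 128 at 100 mg/kg. C2, the protease part of the classical C3 convertase, had 52.1, 66.1 and 108 CPM in control livers, 63.1, 62.00 and 34.2 at 25 mg/kg, 34.00, 61.6 and 58.7 at 50 mg/kg and 35.7, 64.6 and 32.3 at 100 mg/kg. C1s1 and C2 were lowest in the livers with low mitochondrial shares and rose with the share by 0.45 ± 0.091 (adjusted p = 0.00251) and 0.37 ± 0.10 (adjusted p = 0.0129) per 10 points. C2 stood at -0.77 ± 0.40 (adjusted p = 0.424) in the high group, at -0.61 ± 0.32 (adjusted p = 0.564) for the doses together and at -0.69 ± 0.36 (adjusted p = 0.475) for the slope. C1s1 shares 96.0% of its bases with C1s2, which held 1.08% as many counts.

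The mannose-binding lectins, which recognise sugars on microbes, went the other way with the share. Mbl1 had 19.9, 11.8 and 11.1 CPM in control livers, 12.9, 14.6 and 46.9 at 25 mg/kg, 34.7, 13.2 and 10.04 at 50 mg/kg and 83.8, 11.04 and 26.9 at 100 mg/kg. Mbl2 had 39.5, 40.4 and 37.6 CPM in control livers, 33.2, 23.3 and 54.8 at 25 mg/kg, 45.3, 25.5 and 18.7 at 50 mg/kg and 143, 23.6 and 43.2 at 100 mg/kg. Both were highest in high 1 by a wide margin, and they fell with the share, Mbl1 by 0.89 ± 0.10 (adjusted p = 6.42e-05) and Mbl2 by 0.67 ± 0.10 (adjusted p = 0.000401) per 10 points. Mbl1 had the largest estimate of all members in the high group, 1.51 ± 0.72 (adjusted p = 0.405), and one of 0.80 ± 0.71 (adjusted p = 0.882) in the low group, which was -0.063 without low 3. Of the proteases that travel with these lectins, Masp2 had 131, 101 and 216 CPM in control livers, 139.9, 165 and 102 at 25 mg/kg, 149, 201 and 168 at 50 mg/kg and 82.05, 195 and 96.02 at 100 mg/kg. Masp2 rose with the share by 0.35 ± 0.10 (adjusted p = 0.0148), but it shares 1743 identical bases with its neighbour Tardbp, which held 59.9% as many counts, so its value is uncertain. Masp1 was the steadiest of all members, with 44.6 ± 4.03 CPM in control livers, 42.3 ± 6.79 at 25 mg/kg, 43.6 ± 5.39 at 50 mg/kg and 42.3 ± 3.35 at 100 mg/kg (SD, n = 3 each) and a slope of -0.0053 ± 0.073 on the share.

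C3, the protein on which all complement routes converge, and its partner factor B were spread widely within groups. C3 had 586, 603 and 353 CPM in control livers, 316, 246 and 1017 at 25 mg/kg, 887, 452 and 327 at 50 mg/kg and 1599, 234 and 947 at 100 mg/kg. Factor B (Cfb), the protease of the alternative convertase, had 171, 178 and 159.8 CPM in control livers, 143, 127 and 336 at 25 mg/kg, 307, 155 and 154 at 50 mg/kg and 394, 135 and 258 at 100 mg/kg. The highest C3 and Cfb values were in high 1, low 3, high 3 and medium 1, which are the 4 livers with the lowest mitochondrial shares. C3 fell with the share by 0.88 ± 0.093 (adjusted p = 5.12e-05) and Cfb by 0.53 ± 0.084 (adjusted p = 0.000539) per 10 points. Against control, C3 stood at 0.85 ± 0.71 (adjusted p = 0.601) and Cfb at 0.63 ± 0.49 (adjusted p = 0.577) in the high group. Properdin (Cfp), which steadies that convertase, had 19.8, 33.3 and 17.5 CPM in control livers, 21.6, 14.3 and 15.02 at 25 mg/kg, 16.4, 15.9 and 19.1 at 50 mg/kg and 17.2, 24.6 and 21.9 at 100 mg/kg. It showed no call, with -0.47 ± 0.29 (adjusted p = 0.841) in the low group, and no tracking of the share (0.13 ± 0.094 (adjusted p = 0.36)).

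Factor D (Cfd), the adipocyte protease that cuts factor B, was nearly absent except in 1 liver. It had 166 counts in high 1, 6 in medium 1, 4 in control 1, 3 in high 3 and 0 in the other 8 livers. Of 5 adipocyte markers, Adipoq had 13 counts in high 1 and 0 elsewhere, Retn had 3 in control 1, and Plin1, Lep and Cidea had 0 in all 12 livers. The part of adipose tissue in the value of Cfd was not tested.

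Of the 6 transcripts of terminal components, which assemble into the membrane attack pore, 1 (Hc) rose with the mitochondrial share and 3 (C8b, C8g and C9) fell, while C6 and C8a passed in neither direction under TMM scaling. Hc, the gene of C5, had 374, 381 and 446 CPM in control livers, 380.3, 374 and 242 at 25 mg/kg, 232, 359 and 428 at 50 mg/kg and 147, 394 and 172 at 100 mg/kg. Hc rose with the share by 0.41 ± 0.079 (adjusted p = 0.00177) and stood at -0.75 ± 0.43 (adjusted p = 0.458) in the high group and -0.71 ± 0.39 (adjusted p = 0.491) for the slope. C6, which binds C5b, had 4.53, 9.50 and 10.2 CPM in control livers, 2.81, 5.76 and 6.77 at 25 mg/kg, 4.46, 4.99 and 3.72 at 50 mg/kg and 4.84, 4.98 and 6.21 at 100 mg/kg. C6 was lower than 2 of the 3 control livers in all 9 curcumin livers but above control 1 in all but low 1, medium 1 and medium 3. Its change was -0.65 ± 0.35 (adjusted p = 0.826) in the low, -0.88 ± 0.35 (adjusted p = 0.802) in the medium and -0.71 ± 0.27 (adjusted p = 0.458) for the doses together, and its slope on the share was -0.086 ± 0.13 (adjusted p = 0.665). C9, which forms the wall of the pore, had 61.2, 46.9 and 35.9 CPM in control livers, 33.05, 29.2 and 81.4 at 25 mg/kg, 62.2, 37.98 and 39.4 at 50 mg/kg and 80.5, 20.98 and 70.3 at 100 mg/kg. C9 fell with the share by 0.63 ± 0.082 (adjusted p = 0.000156).

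The 3 chains of C8 are joined in 1 protein, yet their transcripts moved apart. C8a had 156, 167 and 273 CPM in control livers, 178, 244 and 207 at 25 mg/kg, 137, 179 and 229 at 50 mg/kg and 88.3, 169 and 126 at 100 mg/kg. C8b had 14.1, 8.82 and 8.18 CPM in control livers, 6.16, 5.73 and 31.5 at 25 mg/kg, 20.7, 11.9 and 6.88 at 50 mg/kg and 46.96, 3.38 and 28.1 at 100 mg/kg. C8g had 43.3, 32.6 and 28.6 CPM in control livers, 28.1, 36.7 and 110.5 at 25 mg/kg, 104, 35.9 and 32.2 at 50 mg/kg and 154, 21.8 and 77.9 at 100 mg/kg. C8b and C8g were high in the same 4 livers, those with low mitochondrial shares, while C8a was lowest in high 1. C8b fell by 1.16 ± 0.08 (adjusted p = 3.71e-05) and C8g by 0.88 ± 0.094 (adjusted p = 5.26e-05) per 10 points, and C8a had a slope of 0.23 ± 0.10 (adjusted p = 0.102). Per length, the ratio of C8b to C8a ran from 0.0323 (high 2) to 0.859 (high 1), a 26.6-fold range that no scaling between libraries can change. C8g to C8a ran over a 16.6-fold range. At the doses, C8g stood at 0.75 ± 0.69 (adjusted p = 0.885) in the low, 0.72 ± 0.69 (adjusted p = 0.997) in the medium and 0.92 ± 0.59 (adjusted p = 0.623) for the doses together. Without low 3 the low value was -0.11, and without medium 1 the medium value was -0.030. The slope of C8a on dose was -0.70 ± 0.35 (adjusted p = 0.467).

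Of the complement inhibitors, factor I followed the pattern of C8b. Factor I (Cfi), which destroys C3b and C4b, had 80.01, 42.03 and 38.1 CPM in control livers, 30.98, 25.1 and 116 at 25 mg/kg, 95.1, 48.8 and 34.4 at 50 mg/kg and 180.0, 20.6 and 99.1 at 100 mg/kg. It fell by 0.98 ± 0.089 per 10 points of share (adjusted p = 5.1e-05) and stood at 0.90 ± 0.74 (adjusted p = 0.595) in the high group. C4bp, a cofactor of factor I, had 47.7, 42.9 and 31.6 CPM in control livers, 31.5, 37.9 and 56.2 at 25 mg/kg, 61.6, 45.2 and 41.6 at 50 mg/kg and 75.9, 39.4 and 48.8 at 100 mg/kg. C4bp fell by 0.31 ± 0.073 (adjusted p = 0.00685), a call that was lost when libraries were scaled by totals without mitochondrial genes and copies (adjusted p = 0.262). The C1 inhibitor Serping1, which blocks C1s and kallikrein, averaged 115 ± 19.5 CPM in control livers, 90.4 ± 16.4 at 25 mg/kg, 90.1 ± 10.1 at 50 mg/kg and 125 ± 55.7 at 100 mg/kg (SD, n = 3 each), and its slope on the share was -0.23 ± 0.089 (adjusted p = 0.0672).

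Among the clotting factors F13b, which encodes the carrier subunit of the factor that crosslinks fibrin, had the smallest edgeR p of all members for the low group, the high group and the doses together. By DESeq2 C4b had the smallest p in each of these comparisons. F13b had 32.3, 18.1 and 26.6 CPM in control livers, 13.3, 13.5 and 12.7 at 25 mg/kg, 15.9, 20.4 and 13.7 at 50 mg/kg and 22.6, 11.8 and 11.97 at 100 mg/kg. All 3 low livers lay below the control livers, while medium 2 and high 1 lay above control 2. Its change was -0.97 ± 0.31 (adjusted p = 0.781) in the low, -0.62 ± 0.31 (adjusted p = 0.93) in the medium, -0.73 ± 0.31 (adjusted p = 0.384) in the high group and -0.77 ± 0.24 (adjusted p = 0.327) for the doses together. Its interval for the doses together was -1.24 to -0.31, and with 1 liver left out the estimate ran from -0.97 to -0.58. Scaled by library totals the high group was at 0.053, where all genes had a median of 0.71. F13b did not track the share (-0.16 ± 0.10 (adjusted p = 0.249)).

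**Figure D4:**
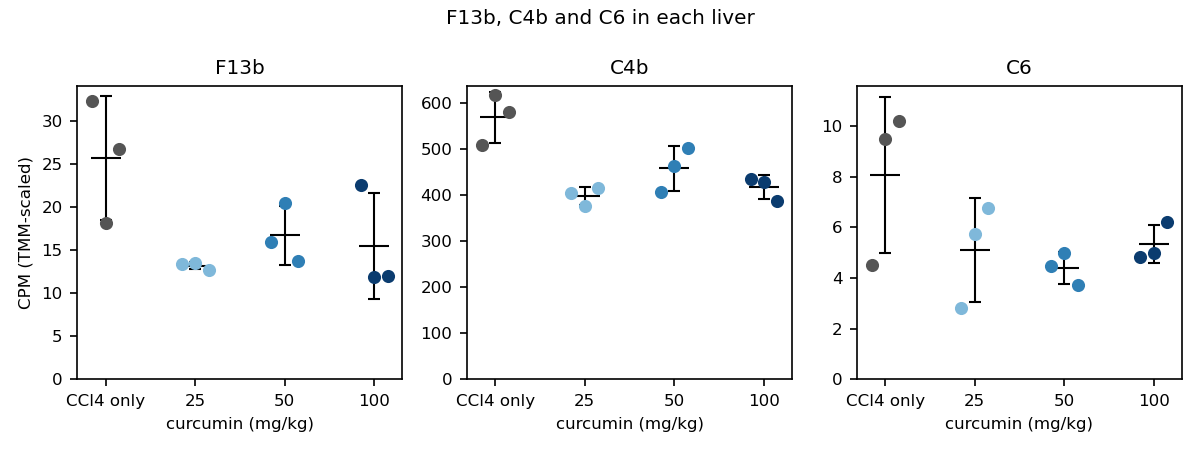
TMM-scaled CPM of F13b, C4b and C6 in each of 12 livers, by curcumin dose in mg/kg with the CCl4 control at the left; points are livers, and bars give the mean and SD of 3. C4b is at most 503 CPM in the 9 curcumin livers, whereas single control livers of F13b (control 2, 18.1 CPM) and C6 (control 1, 4.53 CPM) lie among the curcumin livers.

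The vitamin K dependent factors did not move as 1 group. Prothrombin (F2), the precursor of thrombin, had 93.4, 81.3 and 71.7 CPM in control livers, 63.01, 60.97 and 163 at 25 mg/kg, 165, 92.9 and 71.2 at 50 mg/kg and 272, 65.4 and 136 at 100 mg/kg. F9, the haemophilia B factor, had 35.6, 34.6 and 20.9 CPM in control livers, 30.7, 33.8 and 56.7 at 25 mg/kg, 51.4, 39.6 and 39.4 at 50 mg/kg and 72.9, 21.9 and 57.3 at 100 mg/kg. F10, which cuts prothrombin, had 148, 106 and 88.2 CPM in control livers, 109, 98.9 and 173 at 25 mg/kg, 170.1, 115 and 121 at 50 mg/kg and 213, 82.1 and 162 at 100 mg/kg. All 3 were highest in high 1 and fell with the share, F2 by 0.64 ± 0.077 (adjusted p = 9.28e-05), F9 by 0.48 ± 0.080 (adjusted p = 0.000705) and F10 by 0.41 ± 0.080 (adjusted p = 0.00208). F9 stood above control by 0.41 ± 0.42 (adjusted p = 0.901) in the low, 0.52 ± 0.42 (adjusted p = 0.997) in the medium and 0.56 ± 0.35 (adjusted p = 0.615) for the doses together. F7, which starts clotting with tissue factor, had 61.03, 60.1 and 85.5 CPM in control livers, 45.6, 50.7 and 36.1 at 25 mg/kg, 48.1, 87.2 and 69.6 at 50 mg/kg and 23.8, 74.5 and 49.1 at 100 mg/kg. F7 rose with the share by 0.38 ± 0.092 (adjusted p = 0.00782), opposite to F10, and the ratio of F10 to F7 per length ran from 0.766 (control 3) to 6.64 (high 1).

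Factor XI (F11), which activates F9, also rose with the share. It had 41.8, 48.00 and 71.8 CPM in control livers, 65.1, 67.5 and 36.9 at 25 mg/kg, 39.02, 57.00 and 52.8 at 50 mg/kg and 19.6, 72.7 and 36.01 at 100 mg/kg. Its slope was 0.50 ± 0.077 (adjusted p = 0.00044). The cofactor F5 and the contact factor F12 were steady, with F5 at 88.6 ± 22.9 CPM in control livers, 89.7 ± 7.64 at 25 mg/kg, 81.7 ± 6.62 at 50 mg/kg and 93.5 ± 16.1 at 100 mg/kg (SD, n = 3 each). F12 averaged 107 ± 20.4 CPM in control livers, 95.8 ± 4.28 at 25 mg/kg, 95.1 ± 7.22 at 50 mg/kg and 103 ± 23.7 at 100 mg/kg (SD, n = 3 each). Neither tracked the share, with slopes of -0.053 ± 0.085 (adjusted p = 0.696) and 0.033 ± 0.083 (adjusted p = 0.811), although F12 was called higher under the scaling by totals without mitochondrial genes and copies. F5 overlaps in sequence with Gm16548, which held 7.71% as many counts.

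**Figure D5:**
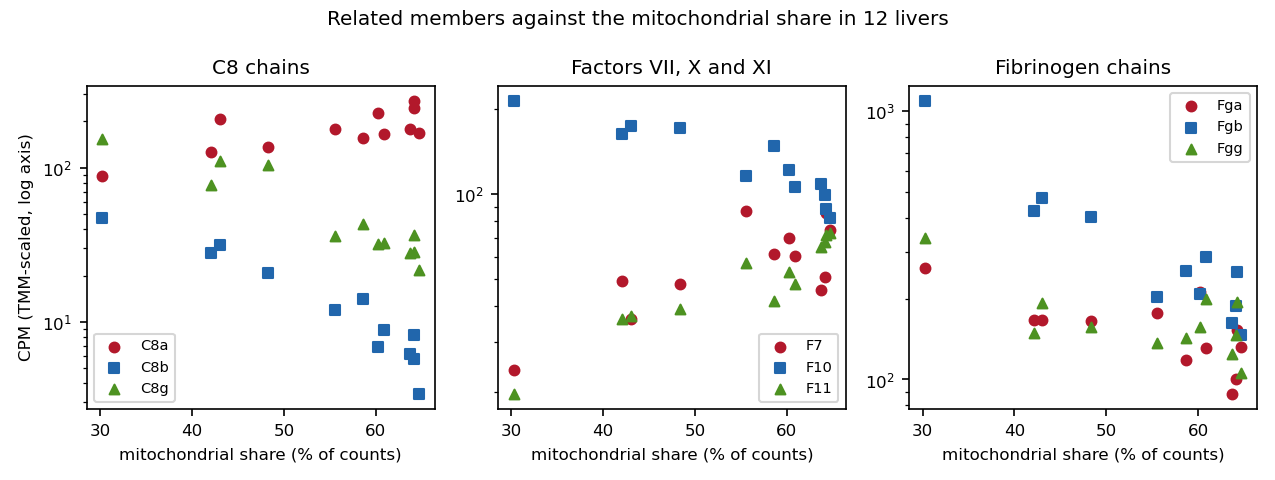
TMM-scaled CPM (log axis) against the mitochondrial share (% of counts) in the 12 livers, for the 3 C8 chains, for clotting factors VII, X and XI and for the 3 fibrinogen chains; each point is 1 liver of any group. C8b falls over a 13.9-fold range while C8a does not, F10 and F11 run in opposite directions, and Fgb falls more steeply than Fga and Fgg.

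In the contact system, which starts from kininogen, prekallikrein and F12, Kng1 had 689, 440.1 and 433 CPM in control livers, 435, 391 and 986 at 25 mg/kg, 754, 519 and 343 at 50 mg/kg and 1379, 285 and 867 at 100 mg/kg. Kng1 fell with the share by 0.68 ± 0.088 (adjusted p = 0.000157), and it shares 92.9% of its bases with Kng2, which held 21.8% as many counts. Prekallikrein (Klkb1), the precursor of the protease that cuts kininogen, had 193, 131 and 202 CPM in control livers, 203, 215 and 213 at 25 mg/kg, 183, 153 and 153 at 50 mg/kg and 208, 132 and 149 at 100 mg/kg. The low livers lay above the control livers by a narrow margin, with a change of 0.26 ± 0.31 (adjusted p = 0.911), and its slope on the share was -0.13 ± 0.086 (adjusted p = 0.305).

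The fibrinogen chains, whose product is the matrix of the clot, gave no call at any dose. The alpha chain Fga had 118, 131 and 153 CPM in control livers, 87.98, 101 and 166 at 25 mg/kg, 165, 177 and 213 at 50 mg/kg and 261, 132 and 167 at 100 mg/kg. The beta chain Fgb had 255, 286 and 252 CPM in control livers, 163, 189 and 474 at 25 mg/kg, 404, 204 and 209 at 50 mg/kg and 1095, 146 and 424 at 100 mg/kg. The gamma chain Fgg had 142, 199.9 and 194 CPM in control livers, 124, 147 and 193 at 25 mg/kg, 157, 137 and 157 at 50 mg/kg and 338, 106 and 149 at 100 mg/kg. All 3 chains were highest in high 1, and Fgb most of all. Fga lay above control in all 3 medium livers, with 0.47 ± 0.36 (adjusted p = 0.997), while Fgb and Fgg were at 0.045 ± 0.64 (adjusted p = 0.999) and -0.25 ± 0.41 (adjusted p = 0.997). With the share, Fgb fell by 0.78 ± 0.092 (adjusted p = 8.5e-05) and Fgg by 0.35 ± 0.10 (adjusted p = 0.0196), and Fga had a slope of -0.25 ± 0.091 (adjusted p = 0.056). Per length, Fgb to Fga ran from 0.667 (medium 3) to 2.85 (high 1). The promoters of both genes, printed above, hold matches to the same 3 kinds of motif, and their part in this ratio was not tested.

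Among the inhibitors of clotting, both serpins fell with the share and both members of the protein C system did not. Antithrombin (Serpinc1) had 277, 174 and 171 CPM in control livers, 156, 123 and 548 at 25 mg/kg, 512, 215 and 181 at 50 mg/kg and 854, 144 and 437 at 100 mg/kg. Heparin cofactor II (Serpind1), which blocks thrombin, had 24.3, 26.2 and 20.6 CPM in control livers, 20.1, 19.4 and 59.99 at 25 mg/kg, 52.4, 26.2 and 21.3 at 50 mg/kg and 106, 19.9 and 38.5 at 100 mg/kg. Serpinc1 fell by 0.85 ± 0.10 (adjusted p = 6.51e-05) and Serpind1 by 0.73 ± 0.082 (adjusted p = 6.51e-05). Serpind1 had a slope on dose of 1.13 ± 0.52 (adjusted p = 0.444). Protein C (Proc), which destroys activated F5 and F8, averaged 215 ± 67.4 CPM in control livers, 230.3 ± 19.4 at 25 mg/kg, 208 ± 10.1 at 50 mg/kg and 205 ± 37.1 at 100 mg/kg (SD, n = 3 each). Its cofactor protein S (Pros1) averaged 11.9 ± 2.11 CPM in control livers, 9.82 ± 1.57 at 25 mg/kg, 10.4 ± 0.994 at 50 mg/kg and 9.61 ± 1.55 at 100 mg/kg (SD, n = 3 each). Their slopes on the share were 0.074 ± 0.091 (adjusted p = 0.602) and -0.0034 ± 0.074 (adjusted p = 0.98), although Proc was called higher under the scaling by totals without mitochondrial genes and copies.

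All 4 transcripts of the fibrinolytic group fell with the share. Plasminogen (Plg), the precursor of the enzyme that dissolves fibrin, had 262, 212 and 184 CPM in control livers, 185, 162 and 437 at 25 mg/kg, 355, 223 and 215 at 50 mg/kg and 666, 150.1 and 333 at 100 mg/kg. Alpha 2 antiplasmin (Serpinf2), which blocks it, had 148, 123 and 118 CPM in control livers, 100, 122 and 195 at 25 mg/kg, 193, 134 and 102 at 50 mg/kg and 265, 74.7 and 183 at 100 mg/kg. Plg fell by 0.63 ± 0.078 (adjusted p = 0.000113) and Serpinf2 by 0.51 ± 0.079 (adjusted p = 0.000445). Cpb2, a carboxypeptidase that slows fibrinolysis, had 13.8, 15.9 and 8.81 CPM in control livers, 10.3, 10.8 and 32.05 at 25 mg/kg, 28.6, 8.94 and 8.92 at 50 mg/kg and 69.4, 7.35 and 31.3 at 100 mg/kg. Vitronectin (Vtn), which stabilises the plasminogen activator inhibitor PAI-1, had 291, 148 and 112 CPM in control livers, 113, 72.8 and 611 at 25 mg/kg, 519, 196 and 158 at 50 mg/kg and 833, 94.1 and 563 at 100 mg/kg. Cpb2 fell by 0.94 ± 0.10 (adjusted p = 5.12e-05) and Vtn by 1.13 ± 0.13 (adjusted p = 6.47e-05). Cpb2 stood at 1.49 ± 0.72 (adjusted p = 0.407) in the high group and 1.41 ± 0.61 (adjusted p = 0.434) for the slope on dose. The ratio of Vtn to F11 per length ran from 1.39 (low 2) to 54.7 (high 1), and that of C3 to Hc from 0.630 (high 2) to 11.5 (high 1). Both pairs join a member that fell with the share to a member that rose, so a wide range follows from that choice. Other pairs varied less, over 2.07-fold for Fgg to Fga, 2.93-fold for Mbl1 to Mbl2 and 2.94-fold for Masp1 to Masp2.

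With the mitochondrial share as a covariate, estimates against control turned lower for most members and still gave 0 calls (0% of all genes) at each dose by edgeR. Lower estimates were found for 34 of 43 members in the low group (50.1% of all genes), 33 in the medium group (51.4%), 35 in the high group (53.1%) and 37 for the doses together (52%). At an unadjusted p under 0.05 there were 5 members in the low (10.5% of all genes), 10 in the medium (9.68%), 7 in the high group (8.12%) and 9 for the doses together (11.1%). In that fit F13b was at -0.92 ± 0.22 (adjusted p = 0.16), C8b at -0.68 ± 0.17 (adjusted p = 0.173) and Cfi at -0.74 ± 0.19 (adjusted p = 0.174) for the doses together. The high estimates of Mbl1, Cpb2 and C1qa in the high group became -0.29 ± 0.29 (adjusted p = 0.856), -0.47 ± 0.29 (adjusted p = 0.725) and -0.093 ± 0.24 (adjusted p = 0.967). The share was measured after treatment and ran from 58.6% to 64.2% in control livers but from 30.3% to 64.7% in the high group. Estimates of this fit therefore assume that the slope on the share holds beyond the control range. Whether they remove part of an effect of dose was not tested.

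The members called with the share differed in transcript length as all genes did. The 22 that fell had a median length of 2135 bases, the 6 that rose 2794 bases and the 15 without a call 2587 bases. Over all tested genes the medians were 1965, 2914 and 2800 bases. Median GC content in these 3 classes of members was 48.7%, 47.5% and 49.3%, and over all tested genes 49.6%, 51.5% and 49.8%. The class that rose thus had the highest median over all genes and the lowest among members. The part of length and GC content in the slopes was not tested.

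Of 60 other genes of the complement and clotting systems (receptors, regulators and activators), 50 were tested and 0 were called at any dose by edgeR, with 1, 3 and 5 at an unadjusted p under 0.05 in the low, medium and high groups (5.99%, 5.58% and 12.8% of all genes). Tissue factor (F3), the membrane protein that starts clotting, had 4.28, 2.15 and 4.48 CPM in control livers, 3.08, 2.96 and 1.80 at 25 mg/kg, 2.14, 1.67 and 1.76 at 50 mg/kg and 1.65, 1.48 and 1.65 at 100 mg/kg. F3 was lower than every control liver in all 3 medium livers (6.38% of all genes were) and all 3 high livers (6.52%). In the medium group the margin was very narrow, with 2.14 CPM in medium 1 and 2.15 CPM in control 2. Its changes in the medium and high groups were -0.97 ± 0.32 (adjusted p = 0.671) and -1.19 ± 0.32 (adjusted p = 0.352). Gas6, a vitamin K dependent ligand of TAM receptors, was at -0.96 ± 0.39 (adjusted p = 0.809) in the low and -1.26 ± 0.39 (adjusted p = 0.648) in the medium group. Without control 2 these estimates were -0.49 and -0.79. In the low group the complement receptor chains Itgam and Itgax were at -1.45 ± 0.73 (adjusted p = 0.823) and -0.89 ± 0.48 (adjusted p = 0.826). They were at -0.88 and -0.21 without control 2. All 5 neutrophil markers tested, of 8 listed, also had lower estimates in the low group, with a median of -1.69, 0 called and 5 at an unadjusted p under 0.05, and they summed to 6.07 to 7.71 CPM in the low livers and 10.3 to 39.3 CPM in control livers. Their part in the values of Itgam and Itgax was not tested. Vsig4, a Kupffer cell receptor for C3b, was at -0.78 ± 0.28 (adjusted p = 0.729) in the medium group, and in the high group Vkorc1, the enzyme that recycles vitamin K, was at 1.81 ± 0.66 (adjusted p = 0.377) and the regulator Cd46 at -0.996 ± 0.39 (adjusted p = 0.379). The values of Vkorc1 and Cd46 leaned on 1 liver, being 0.48 and -0.58 without high 1. With the mitochondrial share 20 of the 50 fell (15.7% of all genes) and 1 rose (12.5% of all genes), and those that fell included Vkorc1 with -0.81 ± 0.11 (adjusted p = 0.000164), clusterin (Clu) with -0.57 ± 0.081 (adjusted p = 0.000255) and Cr1l with -0.47 ± 0.065 (adjusted p = 0.000197).

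Of 26 acute phase genes and liver transcription factors 0 were called at any dose by edgeR, with 5, 1 and 3 at an unadjusted p under 0.05 in the low, medium and high groups (5.99%, 5.58% and 12.8% of all genes). The interleukin 6 receptor Il6ra had 7.98, 7.72 and 9.63 CPM in control livers, 9.95, 11.7 and 23.5 at 25 mg/kg, 28.9, 26.3 and 28.1 at 50 mg/kg and 19.4, 20.98 and 30.3 at 100 mg/kg. Every curcumin liver was above every control liver for Il6ra, as for 1.06% of all genes, with changes of 0.84 ± 0.32 (adjusted p = 0.8) in the low, 1.72 ± 0.32 (adjusted p = 0.353) in the medium and 1.48 ± 0.32 (adjusted p = 0.32) in the high group by edgeR. DESeq2 called it in the medium group (adjusted p = 0.000321) and in the high group (adjusted p = 0.00516). Stat3 was at -0.69 ± 0.24 (adjusted p = 0.8) in the low group, Steap4 at 0.75 ± 0.37 (adjusted p = 0.933) in the medium group, and Socs3, the feedback inhibitor of interleukin 6 signalling, at -1.41 ± 0.43 (adjusted p = 0.371) in the high group. With the share 9 of the 26 fell (15.7% of all genes) and 2 rose (12.5% of all genes).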

How the data were processed

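Whole liver RNA of 12 mice was sequenced after TRIzol extraction and a Hieff library kit, per the labels' protocols. The authors deposited 1 table of raw gene counts, and 0 of its columns lacked a label. The submitters' processing notes list STAR 2.7.10b, StringTie 2.2.1 and fastp 0.23.4 with build mm39. The counting step and how it handled strand and shared reads are not given in the sources used here. IDs were named from GENCODE M21 (52073 of 56923, 91.5%). It also gave the transcript length for TPM, that of the longest principal transcript or otherwise the longest transcript.

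Tests used edgeR 4.0.16 in R 4.3.3: filterByExpr by group, TMM, robust quasi-likelihood fits over all 12 libraries, and Benjamini-Hochberg adjustment over the 16839 genes tested with a threshold of 0.05. Each dose, their mean and a slope on dose (printed over 100 mg/kg) were set against control, the 3 doses were compared by an F test, and a further fit held the group means and the mitochondrial share (printed per 10 points). Log2 changes are given ± 1 standard error, derived from the F statistic, and intervals cover 95%. P-values set each estimate against the spread between mice that the fit leaves, and they do not separate group from cage where these coincide. DESeq2 1.42.0, other scalings, no filter, a replicate block and each library left out were alternatives. Shared sequence was found with BLAST+ 2.17.0. Copies of mitochondrial genes matched 95% or more of the bases along 80% or more of their length. Within groups, library pairs differed beyond sampling noise (lowest chi-square 42.0 per degree of freedom). The tests were also run on simulated counts drawn separately for each gene, and no result given here rests on that run.

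Members and lists were chosen with earlier results of these data known. Named are the C1q chains, every member called and, where fewer than 3 per direction were called, the 3 per direction with the smallest p, group levels of members of each role, and of the other lists up to 3 genes per comparison with the smallest p. Of the genes called with the share in those other lists, 3 are named.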

Additional observations from a re-analysis of the deposited data

How the results depend on the processing

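In each dose comparison 0 members were called by edgeR under every alternative tried: no filter on low counts, DESeq2 size factors, library totals, totals without mitochondrial genes and their copies, the mitochondrial share as a covariate, the groups compared alone, and each liver left out in turn. DESeq2 called 1 member, C4b, for the doses together, and 42, 89, 172, 165, 67 and 16 genes of the whole table for the low, medium and high groups, the doses together, the slope and the difference among doses, where edgeR called 0. With the groups compared alone edgeR called 1 gene of the whole table in the low and 8 in the medium group, Il6ra among them there (adjusted p = 0.0325), and without the filter it called 3 for the doses together. With 1 liver left out the whole table gave 0 to 2 calls in the low group, 0 to 1 for the doses together, 0 to 4 among the doses and 1827 to 4737 with the mitochondrial share. The numbers that the labels share across groups were taken to name mice only. Deviations of same-numbered mice correlated from -0.257 to 0.445, and those of differently numbered mice from -0.485 to 0.353. These overlapping ranges do not decide whether mice of the same number were handled together. With the number as a replicate block, edgeR called 0 members and 0 genes of the whole table in each dose comparison.

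Library totals moved the median log2 change of all genes to 0.11, 0.47 and 0.71 in the low, medium and high groups, 0.42 for the doses together and 0.75 for the slope. The median of the hepatocyte-made members was then 0.53 in the medium and 1.19 in the high group, 0.70 for the doses together and 1.22 for the slope, and that of the C1q chains was 1.29 in the high group and 1.36 for the slope. C1qa was at 0.092 in the low and 0.19 in the medium group, C1qc at 0.27 for the doses together, C4b at 0.11 and 0.23 in the medium and high groups and F13b at 0.053 in the high group, all turned from below 0. Totals without mitochondrial genes and copies gave all genes medians from -0.24 to -0.080 in dose comparisons and 0.17 for slopes on the share. They put the hepatocyte-made median in the high group at 0.035, C1qb at -0.16 there and at -0.053 for the slope, C1qa at -0.10 for the doses together, and the slopes of C1qb and C1qc on the share at 0.11 and 0.075. With the mitochondrial share as a covariate the hepatocyte-made median was -0.31 in the high group and -0.31 for the slope, and that of the C1q chains was 0.050 and 0.030. Estimates turned below 0 for C1qa (-0.093), Mbl1 (-0.29) and Cpb2 (-0.47) in the high group, for C8g (-0.0030) in the medium group, for C1qa (-0.38), C8g (-0.12) and Mbl1 (-0.13) for the doses together, and for C1qa (-0.047), Cpb2 (-0.49) and Serpind1 (-0.23) for the slope. The causes were not tested.

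With 1 liver left out, the median of the hepatocyte-made members ran from -0.34 to 0.20 in the low group (lowest without low 3), 0.00017 to 0.65 in the high group and 0.020 to 0.64 for the slope (both lowest without high 1), and that of the C1q chains from 0.050 to 0.87 for the slope. In the low group the ranges were -0.46 to 0.044 for C1qa, -0.39 to 0.14 for C1qc, -0.063 to 1.11 for Mbl1 and -0.11 to 1.08 for C8g, and in the medium group -0.030 to 1.01 for C8g. C1qb ran from -0.19 to 0.60 in the high group, -0.20 to 0.71 for the slope and -0.64 to 0.030 for the doses together, where C1qa ran from -0.041 to 0.33 and C1qc from -0.34 to 0.18. The slopes on the mitochondrial share ran from -0.24 to 0.13 for C1qb and -0.24 to 0.081 for C1qc. Precision is limited by 3 livers a group with mitochondrial shares from 30.3% to 64.7%, and counts on neighbours and near-identical copies limit Masp2, Kng1, C4b and C1s1. Per-length levels of Serpinc1 and Klkb1 also depend on long transcripts that share sequence with other genes.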
